A study of Sus scrofa with 16 samples.

Results

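The growth hormone and insulin-like growth factor (IGF) axis was followed in pig liver through 10 genes, GHR, IGF1, IGF2, IGFALS, IGFBP1, IGFBP2, IGFBP3, IGFBP5, STAT5B and SOCS2. Its members are the non-control probes whose gene name, or the symbol in the probe description, is 1 of these 10. They are 23 of the 43603 probes on the array and 10 of the 4909 gene symbols that the probes carry. Liver RNA was taken from 16 pigs (Sus scrofa) weighing 20 kg and read on 1 array per pig, with 8 pigs of a low-RFI line (RFIneg in the labels) and 8 pigs of a high-RFI line (RFIpl). RFI is residual feed intake, the feed an animal eats above or below what its growth and maintenance predict, and all pigs of both lines had free access to feed. The question is which liver transcripts differ between lines selected on RFI. With 1 line in each direction, selection and any other difference between the lines cannot be told apart.

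Growth hormone from the pituitary binds the receptor GHR on hepatocytes, which signals through the kinase JAK2 to the transcription factor STAT5B. STAT5B drives IGF1, the main growth factor that liver releases into blood, and SOCS2, which in turn damps the receptor. In blood IGF1 and IGF2 are held by binding proteins, mostly in a complex of IGFBP3 with the acid-labile subunit IGFALS, while IGFBP1 and IGFBP2 follow insulin and nutrition.

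The probes are 60 bases long, and several members are read by more than 1 probe. IGF2 had 6 probes, GHR 4, SOCS2 3, IGF1, IGFBP2 and STAT5B 2 each, and the other 4 genes 1 each. The probes for IGF2 and GHR are shown because these 2 genes have the most probes, and in each a pair of them overlaps. Position is the first base of the probe on the transcript it was designed on, NM_213883 for IGF2 and NM_214254 for GHR, and the probes are written 5′ to 3′. In the overlapping pairs the capitals mark the bases that both probes share, 38 in IGF2 and 45 in GHR, so such a pair is not 2 independent readings. The third IGF2 probe shares no marked run.
IGF2, base 388: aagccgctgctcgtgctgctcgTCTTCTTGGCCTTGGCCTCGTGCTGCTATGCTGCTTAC
IGF2, base 410: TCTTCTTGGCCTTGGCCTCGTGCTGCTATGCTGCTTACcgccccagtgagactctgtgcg
IGF2, base 679: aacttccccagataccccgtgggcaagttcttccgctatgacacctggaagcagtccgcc
GHR, base 1857: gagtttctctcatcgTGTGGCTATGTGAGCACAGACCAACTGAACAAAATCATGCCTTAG
GHR, base 1872: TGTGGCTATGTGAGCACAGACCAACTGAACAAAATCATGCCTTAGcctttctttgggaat

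The other IGF2 probes start at bases 911 and 1138 of the same transcript and at base 1430 of a cDNA clone (AK233453). The other GHR probes start at bases 2700 and 2760 of the clone AK233142. Between probes of 1 gene, correlations of the level over the 16 pigs ran from 0.80 to 0.98 in IGF2, from 0.77 to 0.96 in GHR and from 0.93 to 0.99 in SOCS2, and were 0.98 in IGFBP2 and 0.70 in STAT5B. The 2 IGF1 probes had a correlation of 0.14. The second IGF1 probe (base 1077 of AK234139) was well above background on only 4 low-RFI and 6 high-RFI arrays, so IGF1 rests on the probe at base 505 of NM_214256.

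A level here is the log2 signal minus that of the array's 75th percentile, and levels of different probes are not read as relative amounts of transcript. All 23 probes passed the filter for testing, a signal clearly over background on 8 or more arrays. An array had 28576 to 34977 probes over background, a signal of 320.0 to 508 intensity units at its 75th percentile, and a median local background of 29 to 40. Each of the 4 slides held arrays of 2 pigs per line. Sample numbers ran from 1 to 8 and from 55 to 62, with 4 pigs of each line in each series, and what the series mark is not given in the labels. Of 14 hepatocyte markers 8 were measured, and ALB had 9.06 to 9.76 over the 16 pigs. Of 10 markers of pancreas, fat and muscle 6 were measured. The fat genes ADIPOQ and FABP4 had -5.30 to -4.43 and -2.34 to 0.25, and the pancreas gene CPA1 had -5.91 to -0.16. The muscle genes MYH7, ACTA1 and CKM had -3.94 to -1.62, 2.32 to 4.24 and -0.19 to 1.08. Of 6 erythroid markers 0 were measured.

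Between the lines, 0 of the 10 genes passed the test. Over all 30097 tested probes limma called 3, or 0.00997%, at an adjusted p under 0.05 (Benjamini-Hochberg), and the adjusted p of the 23 probes ran from 0.692 to 0.998. Taking each gene by its brightest probe, 1 of the 10, IGF2, had an unadjusted p under 0.05, where 5.02% of 4022 genes did. By probe, 6 of the 23 did, all of them IGF2 probes that share a transcript, where 5.45% of the tested probes did. The lines lay apart without overlap in 0 of the 23 probes, and in 0.0433% of the probes with a value on all arrays. The low-RFI mean was the lower in 8 of the 10 genes, and 45.3% of all genes were lower in low-RFI. The median difference, low-RFI minus high-RFI, was -0.22 over the 10 genes and 0.017 over the 4022 genes. The median SE over all tested probes was 0.16 on the log2 scale. With 8 pigs per line, the SE of the 10 genes ran from 0.13 in STAT5B to 0.42 in SOCS2. Apart from IGF2, the unadjusted confidence interval of each gene included 0. In whole liver, fewer cells of a type and less RNA per cell cannot be told apart.

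**Figure D1:**
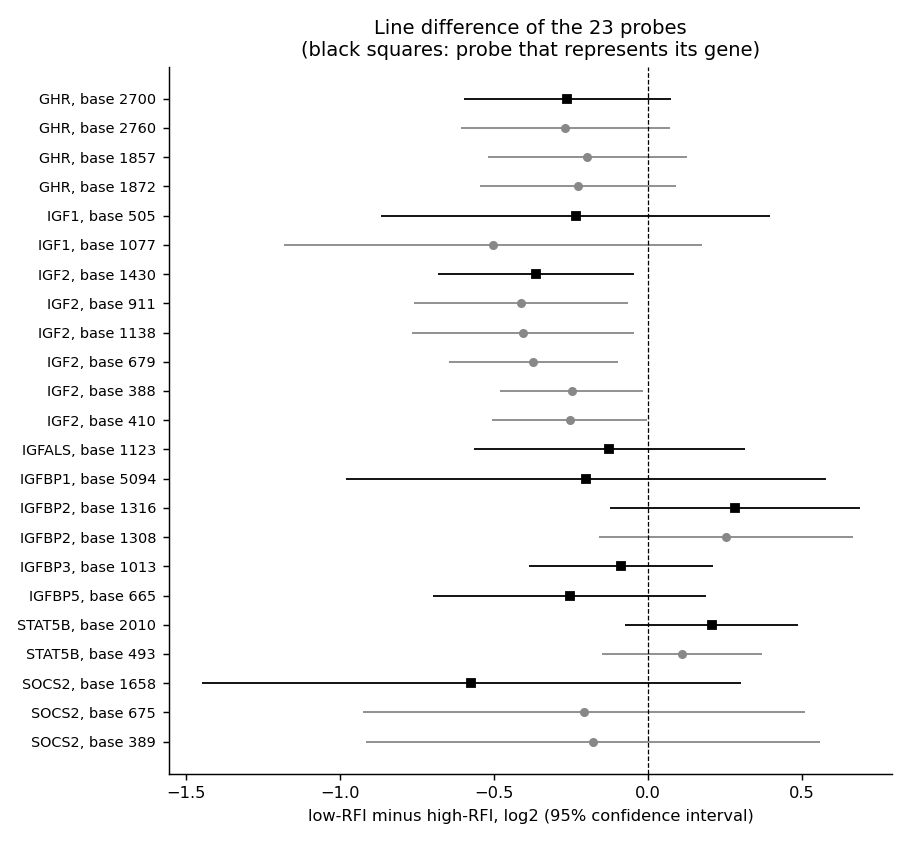
Low-RFI minus high-RFI difference of each of the 23 probes on the log2 scale, with its 95% confidence interval; labels give the gene and the first base of the probe, and black squares mark the probe that represents its gene. The 6 IGF2 intervals lie below 0 without adjustment for the number of probes tested, and every other interval includes 0.

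IGF2 encodes a growth factor of the fetus that pig liver still makes after birth. Its brightest probe, at base 1430, had 6.37, 6.63 and 6.87 in low-RFI pigs (lowest, median and highest), against 6.54, 6.95 and 7.56 in high-RFI pigs. The lines overlapped because 4 high-RFI pigs lay among the low-RFI pigs and the other 4 lay above all of them. The means were 6.66 ± 0.16 in low-RFI pigs and 7.02 ± 0.40 in high-RFI pigs (SD, n = 8 each), a difference of -0.36 (SE 0.15) with an adjusted p of 0.852 in limma. The mean of high-RFI pigs exceeded the level of all 8 low-RFI pigs, and the difference was -0.40, -0.28, -0.34 and -0.43 on the 4 slides. The other 5 probes differed by -0.25 to -0.41, with adjusted p-values of 0.692 to 0.912 in limma.

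The 4 high-RFI pigs that stood apart in IGF2 were those with sample numbers 55 to 62. They had 7.16, 7.56, 7.36 and 7.42, against 6.37 to 6.87 in the other 12 pigs of both lines. Within numbers 55 to 62 the low-RFI pigs had 6.65 to 6.87, with no overlap with the high-RFI pigs, and the line difference was -0.60 with an adjusted p of 0.0901 in limma. In that series 9 of 30097 probes, or 0.0299%, were called. Within numbers 1 to 8 the low-RFI pigs had 6.37 to 6.62, against 6.54 to 6.73 in the high-RFI pigs, and the line difference was -0.13 with an adjusted p of 0.9998. The lines did not overlap within numbers 55 to 62 in 5 of the 6 IGF2 probes, and low-RFI lay below high-RFI without overlap in 2.59% of all probes there. The term for unequal line differences in both series was -0.47, with an adjusted p of 0.685 in limma, and it was called for 0 of 30097 probes, with 6.21% of them at an unadjusted p under 0.05.

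Between the series themselves, with line as a term, IGF2 was higher in numbers 55 to 62 by 0.48 (SE 0.10, adjusted p = 0.0355 in limma). This test was added after the data had been seen. The size held at 0.43 to 0.51 when each pig was left out, but the call did not: the adjusted p was 0.0501 to 0.0777 without any 1 of the low-RFI pigs 3, 6 and 7 or the high-RFI pigs 1, 2, 3, 4, 7 and 8, 0.0533 under normexp, 0.0536 with slide as a block and 0.0716 with no filter on dim probes. With all pigs it passed for 4 of the 6 IGF2 probes, those at bases 679, 911, 1138 and 1430, and for 0 of the other 17 probes of the axis, where 1.93% of all tested probes passed. The overlapping probes at bases 388 and 410 were at 0.26 and 0.29, with adjusted p-values of 0.104 and 0.0912. The estimate was above 0 at all 6 IGF2 probes.

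**Figure D2:**
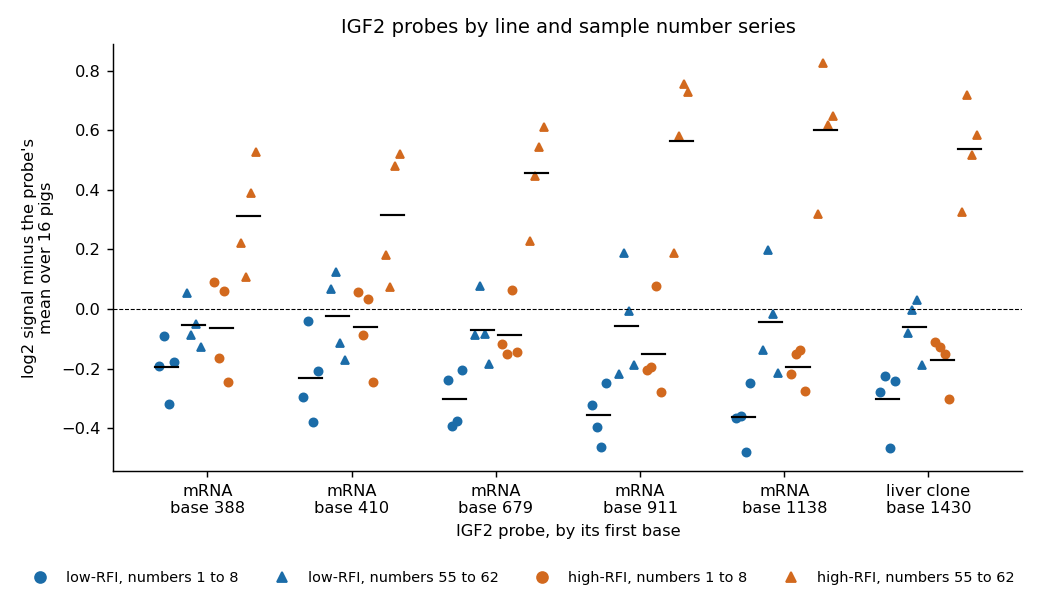
Level of each of the 6 IGF2 probes in each pig, log2, minus that probe's mean over the 16 pigs, with probes ordered by first base. Colour gives the line, circles are sample numbers 1 to 8, triangles are 55 to 62, and short bars are means of 4 pigs. The high-RFI pigs of numbers 55 to 62 lie highest on average at every probe.

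IGF1 had -0.06, 0.64 and 2.098 in low-RFI pigs, against -0.07, 1.02 and 2.07 in high-RFI pigs (lowest, median and highest). The lines covered nearly the same range, with 1 low-RFI and 1 high-RFI pig at the top. The difference was -0.24 (SE 0.30, adjusted p = 0.983 in limma). IGF1 varied more between pigs than most probes, by 4.51-fold from lowest to highest, with an SD larger than that of 90.5% of tested probes. In numbers 55 to 62 it was at -0.76 relative to numbers 1 to 8 (SE 0.24, adjusted p = 0.0854), with line as a term.

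**Figure D3:**
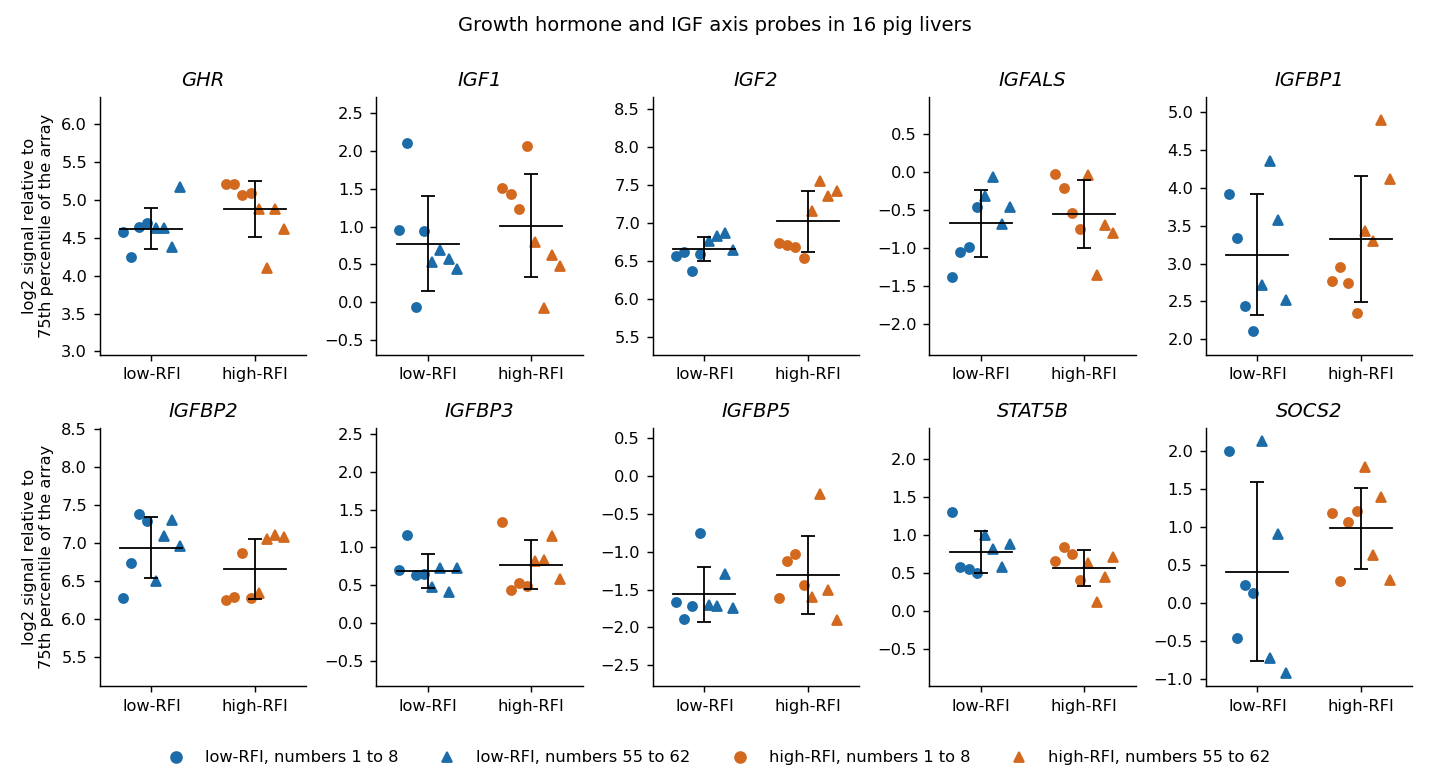
Level of the brightest probe of each gene in each pig, as log2 signal minus that of the array's 75th percentile, low-RFI pigs on the left and high-RFI pigs on the right of each panel. Circles are sample numbers 1 to 8, triangles are 55 to 62, horizontal lines are means of 8 pigs and whiskers the SD, and all panels span the same log2 range. SOCS2, IGFBP1 and IGF1 spread most between pigs.

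GHR, the receptor, had 4.25, 4.63 and 5.17 in low-RFI pigs, against 4.10, 4.97 and 5.21 in high-RFI pigs. Of the 8 low-RFI pigs 7 were under the mean of the other line. The lowest pig of all was high-RFI at this brightest probe, but low-RFI at the overlapping probes at bases 1857 and 1872. The difference was -0.26 (SE 0.16, adjusted p = 0.971 in limma), and the other 3 probes gave -0.20 to -0.27. Within numbers 1 to 8 the low-RFI pigs had 4.25 to 4.69, all below the high-RFI pigs at 5.07 to 5.21, a difference of -0.61 with an adjusted p of 0.9998. All 4 GHR probes showed this separation, in which low-RFI lay below high-RFI without overlap in 1.46% of all probes. Within numbers 55 to 62 the difference was 0.083, with overlap, and the term for unequal line differences was 0.69 (adjusted p = 0.729).

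STAT5B, the transcription factor downstream of the receptor, had 0.49, 0.70 and 1.30 in low-RFI pigs, against 0.11, 0.64 and 0.84 in high-RFI pigs. It was 1 of the 2 genes whose low-RFI mean was the higher, by 0.21 (SE 0.13, adjusted p = 0.977 in limma). Its second probe gave 0.11. Only 34.8% of tested probes varied less between pigs.

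SOCS2, the feedback inhibitor, was the most variable member. It had -0.93, 0.19 and 2.13 in low-RFI pigs, against 0.29, 1.13 and 1.80 in high-RFI pigs. The low-RFI median of 0.19 lay under the lowest high-RFI pig, at 0.29, while the highest 2 pigs were low-RFI. Low-RFI pigs thus had an SD of 1.18, against 0.53 for high-RFI pigs. The range over all pigs was 8.34-fold, and 97.2% of tested probes varied less. The difference was -0.57 (SE 0.42, adjusted p = 0.979 in limma), but it was 1.03 on slide 2 and -0.69, -1.55 and -1.08 on the others. These values are of the brightest probe, on HM045421, and the 2 probes on NM_001097461 gave line differences of -0.21 and -0.18.

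IGFALS, the acid-labile subunit, had -1.39, -0.57 and -0.07 in low-RFI pigs, against -1.35, -0.62 and -0.03 in high-RFI pigs. The lines overlapped over the whole range, and the difference was -0.13 (SE 0.21, adjusted p = 0.997 in limma). It was -0.59 within numbers 1 to 8 and 0.34 within numbers 55 to 62, with an adjusted p of 0.7295 for the term that compares both. IGFBP3, its partner in the blood complex, had 0.41, 0.68 and 1.17 in low-RFI pigs, against 0.44, 0.70 and 1.34 in high-RFI pigs. The difference was -0.086 (SE 0.14, adjusted p = 0.997 in limma), and only 35.8% of tested probes varied less.

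IGFBP1, the binding protein that insulin represses, had 2.11, 3.02 and 4.35 in low-RFI pigs, against 2.35, 3.12 and 4.89 in high-RFI pigs. Its levels spanned a 6.86-fold range, and 95.2% of tested probes varied less. The line difference was -0.20 (SE 0.37, adjusted p = 0.998 in limma). The difference was 0.024 without the high-RFI pig 7, which had the highest level. IGFBP2, a binding protein that growth hormone lowers in other mammals, had 6.27, 7.02 and 7.38 in low-RFI pigs, against 6.25, 6.61 and 7.10 in high-RFI pigs. Its low-RFI mean was higher by 0.28 (SE 0.19, adjusted p = 0.977 in limma), and above 0 on all 4 slides, at 0.07 to 0.54. IGFBP5, made by mesenchymal cells in many tissues, had -1.89, -1.71 and -0.76 in low-RFI pigs, against -1.91, -1.47 and -0.24 in high-RFI pigs. Its difference was -0.25 (SE 0.21, adjusted p = 0.979 in limma).

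Around these 10 genes, 46 further genes from 4 lists were measured, and 0 of them passed the test between the lines. Of 15 listed genes of the rest of the IGF system 7 were measured, with a median difference of -0.094, against 0.017 over all genes. The 2 with the smallest p were IGFBP4, another binding protein, at 0.26 (SE 0.17), and IGF1R, the IGF1 receptor, at -0.24 (SE 0.19). Of 20 genes of growth hormone receptor signalling 13 were measured, with a median of 0.10. The low-RFI mean was the higher in 10 of the 13, and in 2201 of all 4022 genes. JAK2, the receptor's kinase, was at 0.35 (SE 0.18) and STAT3 at 0.37 (SE 0.19), with adjusted p-values of 0.945 in limma. Of 20 growth hormone-responsive liver genes known from rodents 13 were measured, with a median of 0.0018. CEBPA, a transcription factor of mature hepatocytes, was at -0.41 (SE 0.13, unadjusted p = 0.00712, adjusted p = 0.649 in limma), and the acute phase inhibitor SERPINA3-2 at 0.34 (SE 0.17). Of 21 insulin- and fasting-responsive genes 14 were measured, with a median of -0.0041. FOXO1, which insulin inactivates, was at 0.23 (SE 0.19), and the fasting hormone FGF21 at -0.74 (SE 0.67).

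Covariation between pigs was asked of the brightest probes, over the 45 pairs of members and over all 40105 pairs of a member with any gene. By Pearson r with 100000 permutations, 0 of the 45 pairs passed an adjusted p of 0.05, and 0 of the 40105 pairs did, with 11.7% of them at an unadjusted p under 0.05. Among the 45 pairs 4, or 8.89%, had an unadjusted p under 0.05, a share no higher than that of all pairs.

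**Figure D4:**
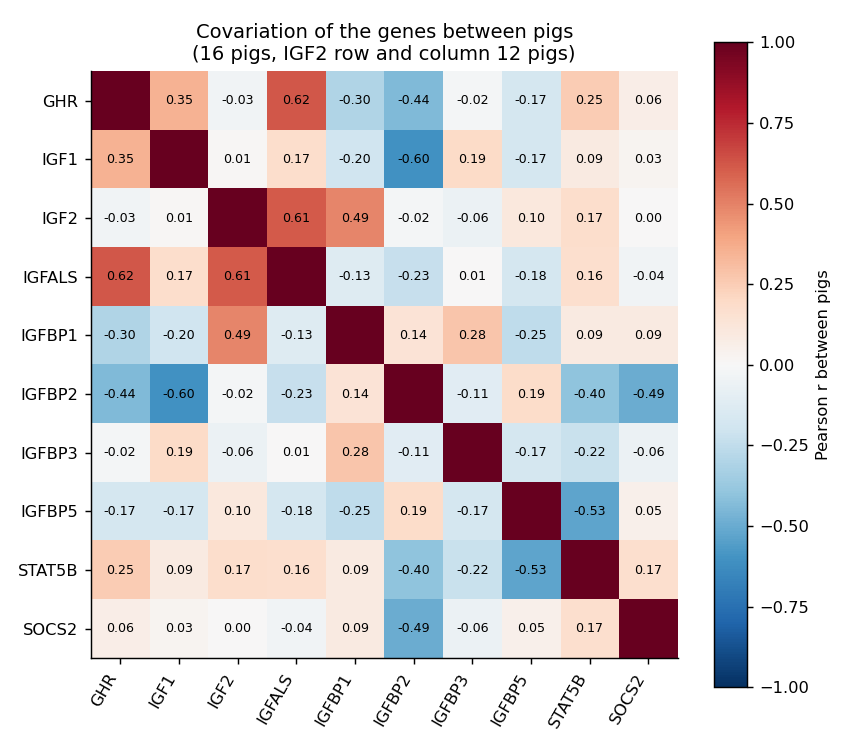
Pearson r of the levels of each pair of the 10 genes between pigs, from -1 (blue) to 1 (red), over 16 pigs, and for pairs with IGF2 over the 12 pigs left without the high-RFI pigs of sample numbers 55 to 62. GHR with IGFALS, at 0.62, and IGF1 with IGFBP2, at -0.60, stand out among the pairs over 16 pigs.

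GHR and IGFALS, a receptor and a growth hormone-dependent product of hepatocytes, had the highest r among the pairs without IGF2. Pearson r was 0.62 (permutation p = 0.0114, adjusted 0.304) and Spearman rho was 0.62 (permutation p = 0.0127, adjusted 0.416). Without the high-RFI pigs 1 and 6, which lie farthest out in GHR, r was 0.43. It was 0.38 in low-RFI pigs and 0.80 in high-RFI pigs, 0.78 in numbers 1 to 8 and 0.60 in numbers 55 to 62. The relation had the same sign in each of these subsets.

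IGF1 and IGFBP2 had the most negative r of the 45 pairs. Pearson r was -0.60 (permutation p = 0.0130, adjusted 0.312) and Spearman rho was -0.63 (permutation p = 0.0103, adjusted 0.392). Leaving out the low-RFI pig 2 and the high-RFI pig 4, the highest in IGF1, gave -0.62. It was -0.39 in low-RFI pigs and -0.77 in high-RFI pigs, -0.63 in numbers 1 to 8, -0.30 in numbers 55 to 62 and -0.75 with levels centred within slide. The relation thus did not rest on the 2 extreme pigs, but it did not pass the adjustment.

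IGFBP5 and STAT5B had an r of -0.53 (permutation p = 0.0412, adjusted 0.406) and a rho of -0.41, and r was -0.10 without the low-RFI pig 4 and the high-RFI pig 6, so the relation rests on those pigs. For IGF2 no value over all 16 pigs is given because its pigs fell into 2 clusters. IGF2 with IGFBP1 was 1 of the 4 pairs with an unadjusted p under 0.05 over 16 pigs. Over the 12 pigs of the lower cluster IGF2 had an r of 0.61 with IGFALS and of 0.49 with IGFBP1. Those pigs were picked by their IGF2 levels, so no p-value is given. With IGFALS r was 0.66 within numbers 1 to 8, all of them in the lower cluster. Over all pigs of numbers 55 to 62, which fall in both clusters, it was -0.65, so the sign differed between the series. Neighbours among the protein-coding genes of the pig annotation are IGFBP3 with IGFBP1 and IGFBP2 with IGFBP5. Their r was 0.28 (permutation p = 0.295) and 0.19 (permutation p = 0.505), so levels of these neighbours did not follow each other detectably in 16 pigs.

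The genes whose levels were most like those of IGFBP3, IGF1 and IGFBP1 were taken from all genes by Pearson r. For IGFBP3 the first was PTH1R, the receptor of parathyroid hormone. PTH1R had 0.16, 0.49 and 1.01 in low-RFI pigs, against 0.34, 0.50 and 1.10 in high-RFI pigs, and the pigs highest in IGFBP3 were those highest in PTH1R. Pearson r was 0.92 (permutation p = 1e-05, the smallest that 100000 permutations can give, adjusted 0.0501) and Spearman rho was 0.87 (permutation p = 3e-05, adjusted 0.150). Within low-RFI pigs it was 0.96 and within high-RFI pigs 0.94, with 0.97 in numbers 1 to 8, 0.94 in numbers 55 to 62, and 0.82 without the low-RFI pig 2 and the high-RFI pig 1. The 2 probes share a run of at most 5 bases on either strand. Under normexp r was 0.89, with an adjusted permutation p of 0.0446, past the threshold. Next to IGFBP3 came PTGES, a prostaglandin E synthase, at an r of 0.77 and SULT1A3, a sulfotransferase, at 0.65, with adjusted p-values of 0.134 and 0.264 from the same permutations.

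IGF1 was most like SLC19A2, a thiamine transporter, at an r of 0.86 (permutation p = 2e-05, adjusted 0.0501), a rho of 0.82 and 0.79 without its 2 extreme pigs. NUDT18 at 0.85 and KHDRBS3 at 0.78 followed, with adjusted permutation p-values of 0.0668 and 0.126. IGFBP1 was most like CEBPB, a transcription factor of the acute phase and of gluconeogenesis, at an r of 0.80 (permutation p = 0.00027, adjusted 0.122) and a rho of 0.82. The value was 0.81 without the low-RFI pig 6 and the high-RFI pig 7, 0.82 within low-RFI pigs and 0.79 within high-RFI pigs, and 0.77 and 0.84 in the 2 number series. ULK1, a kinase that starts autophagy, at 0.79 and OOEP, an oocyte protein, at 0.77 followed, but OOEP was at -0.22 under normexp background correction. Levels over all pigs were low, at -3.80 to -2.11 for CEBPB, -5.22 to -2.44 for ULK1 and -4.90 to -3.64 for OOEP. The ranges of ULK1 and OOEP overlapped that of the fat gene ADIPOQ, -5.30 to -4.43. Whether signal near background shaped these relations was not tested. Among the insulin- and fasting-responsive genes IGFBP1 had an r of 0.67 and a rho of 0.77 with PCK1, the gluconeogenic enzyme (permutation p of r = 0.00424, adjusted 0.254).

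**Figure D5:**
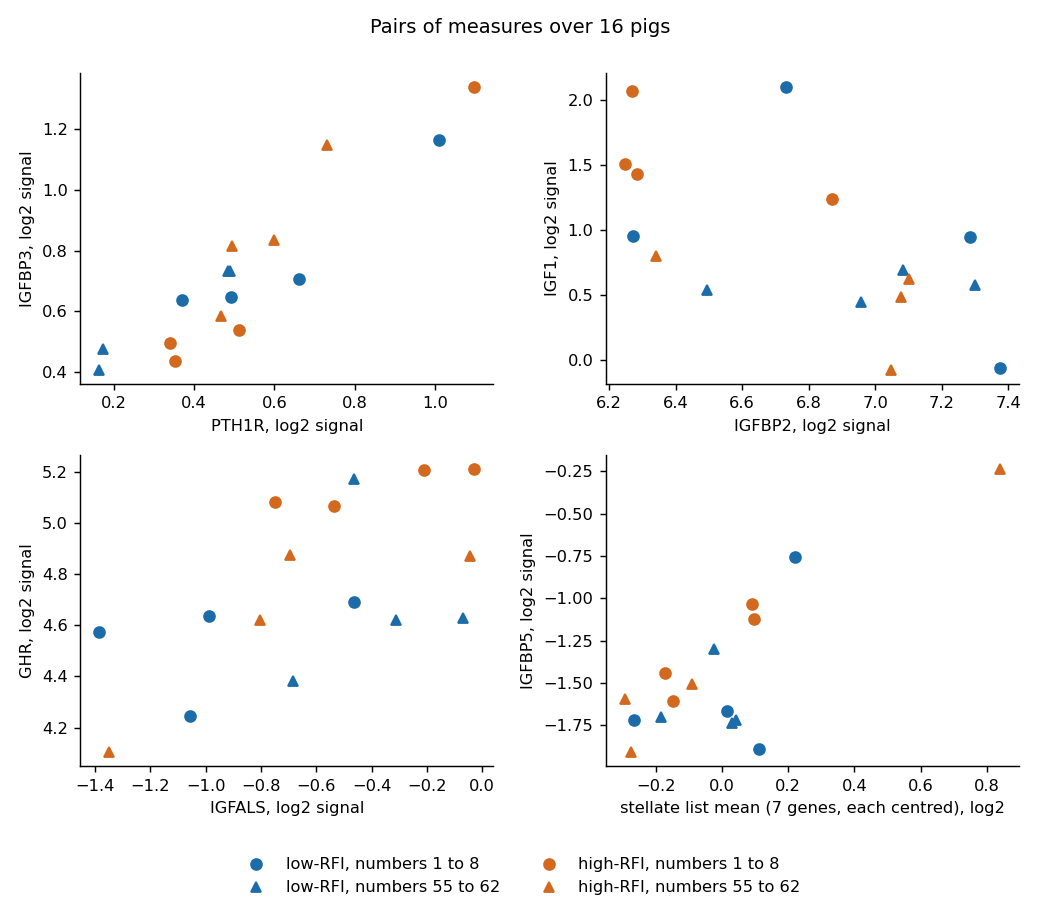
Each point is 1 of 16 pigs, coloured by line, with circles for sample numbers 1 to 8 and triangles for 55 to 62; axes are levels on the log2 scale, or the mean of 7 stellate cell and fibroblast markers, each centred over the pigs. IGFBP3 lies along PTH1R in both lines at an r of 0.92, IGF1 with IGFBP2 is at -0.60 and GHR with IGFALS at 0.62, neither past the adjustment, and the high-RFI pig 6 lies apart in IGFBP5 and the marker mean.

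Against the mean levels of markers of hepatocytes, Kupffer cells, stellate cells with fibroblasts, and endothelium, 40 relations were computed and 1 passed. IGFBP5 had an r of 0.80 with 7 measured stellate cell and fibroblast markers (permutation p = 0.00112, adjusted 0.0448 over the 40), but a Spearman rho of 0.45 (permutation p = 0.081). The marker mean ran from -0.27 to 0.22 in low-RFI pigs, against -0.29 to 0.84 in high-RFI pigs. The top value was the high-RFI pig 6, which also had the highest IGFBP5 and the lowest GHR, IGFALS, IGF1 and STAT5B of its line. Without that pig and the low-RFI pig 4 r was 0.36 (permutation p = 0.203), so the relation rests on those pigs. It also missed the threshold under normexp (adjusted p = 0.0756) and in the authors' deposited table (adjusted p = 0.0612). Among the single markers r with IGFBP5 was 0.78 for DCN, 0.73 for COL1A2, 0.60 for ACTA2 and 0.57 for DES. It was only 0.24 for LUM and 0.17 for RGS5, and -0.32 for COL3A1. Of the 40 relations 4 had an unadjusted permutation p under 0.05. IGF2 with 8 endothelial markers was 1 of these 4, and r was 0.06 within numbers 1 to 8. It was -0.32 within numbers 55 to 62, whose pigs fall in both IGF2 clusters. Within low-RFI pigs, all in the lower cluster, r was -0.69. Within high-RFI pigs, which fall in both clusters, r was -0.80. IGFBP2 with the same list had an r of -0.59 (permutation p = 0.0191, adjusted 0.255), at -0.54 and -0.68 in the 2 number series. SOCS2 with Kupffer cell markers was at 0.54 (permutation p = 0.0315, adjusted 0.315), and at 0.41 without its 2 extreme pigs. The part of cell composition in the other results was not tested.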

How the data were processed

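Per the labels, total RNA from the livers of 8 low-RFI and 8 high-RFI pigs, separate animals, was labelled with Cy3 and hybridised to 1-colour Agilent porcine arrays. The scans were quantified by Agilent Feature Extraction, version 10.7.3.1, with the protocol GE1_107_Sep09, per the file headers. Its processed signal, like the mean spot signal and the local background, is an intensity on a linear scale per the file headers, with background subtracted and no scaling between arrays. The authors also deposited log2 values of 27938 spots, found here to be log2 processed signal minus the median of those spots on each array, within 4.48e-08. R 2.10.0 is named in the submitters' processing notes. No genome build was used.

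From the scanner files, spots flagged as outliers were dropped, the 75th percentile of log2 processed signal was subtracted on each array, and the mean over a probe's spots was taken. Testing kept 30097 of 43603 probes, those clearly over background on 8 or more arrays. Names came from the files and from RefSeq and gene tables, and 11332 probes carried exactly 1 symbol. The brightest tested probe stood for each of 4022 genes. Low-RFI minus high-RFI was fitted in limma 3.58.1 (R 4.3.3, jsonlite 2.0.0, the data.table package at version 1.17.8) on all 16 pigs without covariates, with p-values adjusted by Benjamini-Hochberg across the tested probes and called under 0.05. Confidence intervals cover 95%. Covariation used two-sided permutation p-values with 100000 permutations, or all 40320 orders for 8 pigs, adjusted over 40105 pairs of a member with any of 4016 genes that had values on all arrays (Python 3.11.15, numpy 2.4.6, pandas 2.3.3, scipy 1.17.1, matplotlib 3.10.9). The fit and the covariation step were tested on simulated data. The number of arrays limits the precision.

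The pigs were not treated as paired by the replicate numbers of the labels. Same-numbered pigs had deviations from their line means correlated by 0.048 to 0.40, with 2 of 8 pairs under 0.1. These values cannot settle whether the numbers pair the pigs, as no differently numbered pigs were compared. Replicate numbers also follow the sample number series in both lines. The members, the pathway and marker lists and the rule for named genes (all 10 genes, in each list the called genes or else the 2 with the smallest p, and the 3 genes most like IGF1, IGFBP1 and IGFBP3) were chosen with earlier results of these data known. PCK1 with IGFBP1, the single stellate cell markers and the comparisons between number series were picked after values were seen. The alternatives were other background corrections, scalings, filters and blocks, the authors' table, the mean over a gene's probes, trend with robust variances, and leaving out each pig. Sequences are the probe sequences of the scanner files. No genome sequence was used, so no coordinates are given, and neighbouring genes come from the RefSeq table of Sscrofa11.1.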

Additional observations from a re-analysis of the deposited data

Results flagged for a closer look

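Dixon's test at its 95% critical value for 8 pigs was applied to the 10 genes in each line, 20 groups in all, and chance passes about 1 in 20 groups. Both values that passed belong to the low-RFI pig 2. Its IGF1 level of 2.098 was the highest of its line, with a gap to the next pig of 0.528 of the line's range. Its IGFBP3 level of 1.17 was also the highest of its line, with a gap of 0.572 of the range. Without this pig the line difference, low-RFI minus high-RFI, was -0.42 for IGF1 and -0.15 for IGFBP3, against -0.24 and -0.086 with it.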

How the results depend on the processing

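Under each of 29 alternatives for the line comparison, 16 of which left out 1 pig, 0 member genes and 0 genes of the pathway lists were called. With the replicate number as a block the counts were also 0, though whether the numbers pair the pigs is not settled. IGF2 was then at -0.36 with an adjusted p of 0.455 in limma. Directions turned in few cases. IGFBP1 ran from -0.38 to 0.024 when each pig was left out. With sample numbers 55 to 62 alone GHR was at 0.083, IGF1 at 0.10 and IGFALS at 0.34, and with numbers 1 to 8 alone IGFBP1 was at 0.25 and IGFBP3 at 0.087. The number of IGF2 probes called between the number series, 4, was 2 under normexp or median scaling, 1 with slide as a block, 0 with no filter and 0 to 4 when each pig was left out. Of 45 pairs of members 0 were called under 24 alternatives. Over all pairs of a member with any gene, calls numbered 18 under normexp, 44 with levels centred within line, 318 centred within slide, where permutation ignores the means removed, and 0 to 9 when each pig was left out. IGFBP3 with PTH1R was called in these first 3 settings and without the high-RFI pig 2 or 3 (adjusted p = 0.0446 in both), and r was 0.89 under normexp. IGFBP1 with OOEP was at -0.22 under normexp; the cause was not tested. Relations with marker means called numbered 0 under normexp, the authors' table and centring within number series, 2 under median scaling, the mean over a gene's probes and centring within slide, and 0 to 1 when each pig was left out. IGFBP5 with stellate cell markers missed the threshold without any 1 of the low-RFI pigs 3, 4, 5 and 7 or the high-RFI pigs 2, 3, 6 and 8, with adjusted p-values of 0.0508 to 0.379. Array noise, the median CV of replicated probes, averaged 13.3% ± 1.39 over low-RFI pigs and 14.6% ± 1.53 over high-RFI pigs (SD, n = 8 each, exact permutation p = 0.0968), and with it as a covariate 0 member genes were called. With 8 arrays per line and a median SE of 0.16, small differences were not detectable.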
